A study of Mus musculus with 86 samples.

Results

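Tardbp is the mouse gene for TDP-43, and the values described here are those of its transcript isoforms. The isoforms were chosen by annotation alone, as every transcript that the mouse annotation assigns to Tardbp (ENSMUSG00000041459, chr4:148612382-148627019, minus strand, GRCm38). There were 30 of them, Tardbp-201 to Tardbp-230, among 135181 transcripts in the CAD and N2A tables and 133618 in the transgene tables, and they were read in 36 of the 86 libraries of the series. After a filter on low counts, 11 isoforms were tested in CAD cells, 12 in N2A cells and 13 in the transgene cells, which are 14 different isoforms in all. The other 16 never passed. Of these, 3 had no read in any library, the highest reached 3.25 TPM (Tardbp-212, soma of Q331K transgene cells; TPM is the abundance of a transcript after scaling by its effective length and to a constant total per library), and together they held at most 1.09% of the Tardbp TPM of a library.

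The study asked how TDP-43 shapes the RNA content of neurites. CAD cells, a mouse catecholaminergic line from the central nervous system, and N2A cells, a mouse neuroblastoma line, were grown on porous membranes, and poly(A) RNA was sequenced from the cell bodies (soma) above the membrane and the neurites below it. In both lines the wild-type and the knockout libraries came from cells in which Cas9 had disrupted the endogenous Tardbp alleles, and both carried a single-copy HA-tagged TDP-43 transgene with silent changes at the guide sites, the TDP-43 3′ UTR and a doxycycline-off promoter. The wild-type cells were left without doxycycline, so that the transgene was on, and the knockout cells received 2 µg/mL doxycycline for 48 h according to the labels, so that it was off. A separate experiment used CAD cells with intact endogenous alleles and a doxycycline-inducible HA-tagged TDP-43 transgene, wild-type (WT) or with the Q331K change, with a synthetic 3′ UTR. By the paper's methods this transgene was induced with doxycycline before fractionation. The paper reports that its expression lowered that of the endogenous alleles. Each experiment had 4 groups of 3 libraries. Each conditional knockout line was a screened clone, and nothing in the labels ties a replicate number to a separate culture, so p-values measure only the spread between these libraries.

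TDP-43 is a nuclear RNA-binding protein that binds GU-rich RNA and is lost from the nucleus or aggregates in amyotrophic lateral sclerosis and frontotemporal dementia. It limits its own mRNA: TDP-43 binds the 3′ UTR of the Tardbp transcript, where its binding is tied to the splicing of introns in the last exon and to the choice of polyadenylation site, and spliced products can be degraded. Many of the isoforms differ in this last exon, while some, such as Tardbp-211, Tardbp-225 and Tardbp-228, have sequence or junctions of their own further upstream.

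The total estimated counts were 25009904 to 32895542 per library in CAD cells, 22726534 to 31911030 in N2A cells and 9783050 to 15870647 in the transgene cells. Of 8 neuronal markers, 6 reached 1 TPM in every group, with sums of 480 to 1706 TPM per library in CAD cells and 365 to 937 TPM in N2A cells. The catecholaminergic markers had 2 to 3 of 6 at that level in the groups of CAD cells and 1 to 3 in those of N2A cells.

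**Figure D1:**
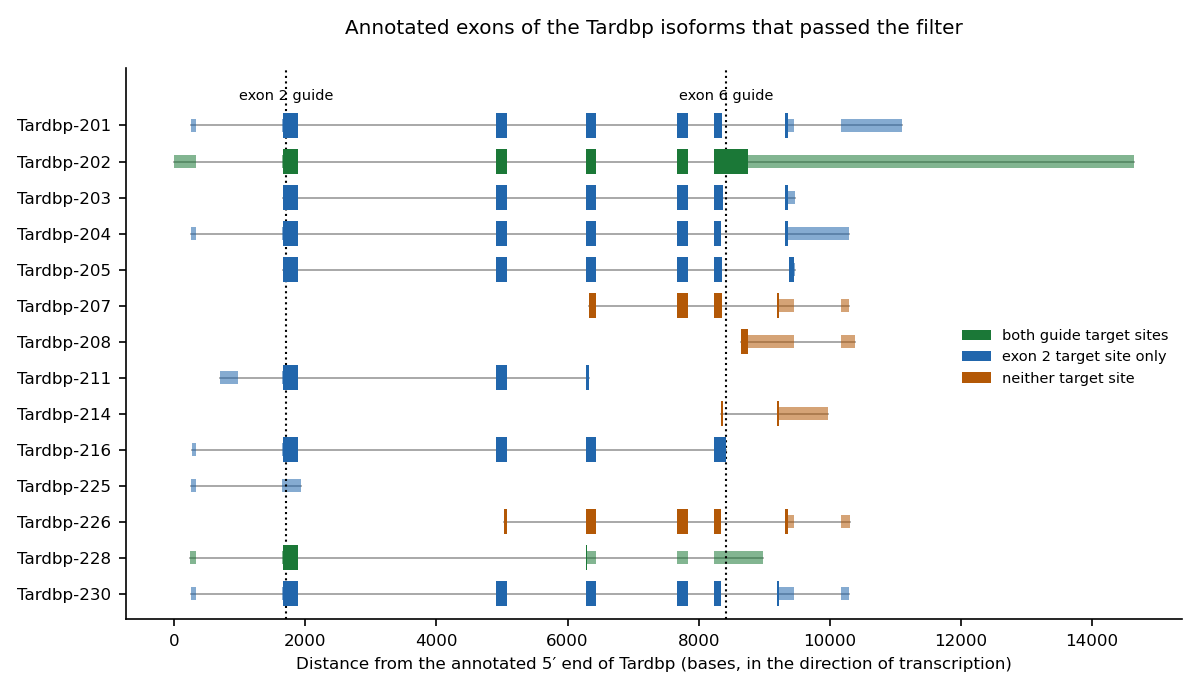
Exon structures of the Tardbp isoforms that passed the filter in at least 1 experiment, drawn to scale against the distance in bases from the start of the gene (horizontal axis), 1 isoform per row, with tall boxes for coding sequence and low boxes for the rest of each exon. The dotted vertical lines mark the guide target sites, 1710 and 8422 bases from the start, and colour shows whether an isoform holds both sites (green), that of exon 2 alone (blue) or neither (orange). The second line crosses an exon in Tardbp-202 and Tardbp-228 and an intron in Tardbp-203, Tardbp-204 and Tardbp-205.

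The full-length mRNA, Tardbp-202 (ENSMUST00000084125), has 7477 bases and 414 codons, followed by 5882 bases after the coding sequence. Tardbp-203 (ENSMUST00000095719, 304 codons), Tardbp-204 (ENSMUST00000105699, 295 codons) and Tardbp-205 (ENSMUST00000105700, 302 codons) are coding isoforms in which an intron begins inside the coding part of the last exon and ends behind the stop codon of Tardbp-202. Tardbp-228 (ENSMUST00000190696, 1411 bases) skips exon 3 and is annotated as a target of nonsense-mediated decay (NMD), the pathway that degrades mRNAs with early stop codons, as is Tardbp-208 (ENSMUST00000147391, 1011 bases), which starts late in the gene and has an intron within the 3′ UTR. Tardbp-214 (ENSMUST00000186711, 814 bases) consists of a short piece of the last coding exon joined to 3′ UTR sequence. The junctions below tell these isoforms apart. Each is shown with the last 15 bases of the upstream exon in lower case and the first 15 of the downstream exon in capitals, in the direction of the mRNA, with the positions of both junction bases on the minus strand of GRCm38.
Tardbp-205, also in Tardbp-206 and Tardbp-218 (chr4:148617635-148618665): ttggtggtaatccagGAATACTTCTGTCTA
Tardbp-203, also in Tardbp-210 (chr4:148617705-148618647): gctttgggaatcaggTTCATCTCATTTCAA
Tardbp-204, also in Tardbp-215 and Tardbp-226 (chr4:148617705-148618674): gtggaagatttggtgTTCATCTCATTTCAA
Tardbp-214 (chr4:148617825-148618647): gctttgggaatcaggGAAAATCTCCATTTG
Tardbp-230 (chr4:148617825-148618674): gtggaagatttggtgGAAAATCTCCATTTG
Tardbp-228 (chr4:148620732-148625125): tcaactatcccaaagGTCAAGAAAGATCTT
Tardbp-208 and 7 others (chr4:148616844-148617566): gctgcgtctttgacgCCCTGAATGCAAAGA
Tardbp-203 and Tardbp-214 share the upstream side of their junction, and Tardbp-204 and Tardbp-230 share another, while Tardbp-203 and Tardbp-204 share the downstream side, so that 2 upstream and 2 downstream ends are combined in 4 ways.

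The guides used to disrupt the endogenous alleles fall at different places in these isoforms. The clones were screened by PCR for a deletion between both sites, so isoforms that hold no site can also lie partly in the deleted stretch, as Tardbp-214 does with its first exon. The sites are shown with the 3 bases of the PAM in capitals after each site.
Exon 2 site, same strand as the mRNA (chr4:148625290-148625309): accatcagaagacgatgggaCGG
Exon 6 site, opposite strand (chr4:148618578-148618597): ctccacccatattaccacccTGG
Both sites were present in 2 of the 30 isoforms, Tardbp-202 and Tardbp-228, although the exon 6 site lies in coding sequence in Tardbp-202 and outside it in Tardbp-228. Another 13 held the exon 2 site alone, among them Tardbp-203, Tardbp-204 and Tardbp-205, in which the exon 6 site lies in the spliced-out intron. The remaining 15 held neither site, among them Tardbp-208 and Tardbp-214.

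TDP-43's preferred GU repeats were counted as the letters GTGTG on the mRNA strand, overlaps included. Tardbp-202 held 16, Tardbp-204 held 7 and Tardbp-214 held 6. At least 6 were found in 2.0% of the 11674 transcripts within 10% of the length of Tardbp-214, and at least 7 in 9.8% of the 7975 of a length like that of Tardbp-204. Tardbp-203, Tardbp-205 and Tardbp-208 held 1 each and Tardbp-228 held 2. One run of these letters in Tardbp-214 lies in the 3′ UTR, with 2 overlapping matches that begin 1124 and 1126 bases behind the stop codon of Tardbp-202, and 6 isoforms include it (motif in capitals).
3′ UTR window, minus strand (chr4:148617134-148617163): tcaactgctgtgaatgctgtatgGTGTGTG

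The isoforms share most of their sequence, and this sets how far the values can be read one by one. Of the 31-base words of each isoform, those found in no other transcript were 0.3% for Tardbp-202, 1.9% for Tardbp-228, 3.6% for Tardbp-214 and 0.0% for Tardbp-203, Tardbp-204, Tardbp-205 and Tardbp-208, against 39.2% for Tardbp-211, which has a first exon of its own. All words of Tardbp-205 also lie in Tardbp-206, and all those of Tardbp-203 in Tardbp-210. Reads were divided among isoforms by the submitters' quantification, and the error of that division is not part of any p-value here. Reads of the transgene and of the endogenous gene were not separated in the tables. Masp2, the gene of a complement protease, overlaps the end of Tardbp by 3118 bases on the opposite strand and shares 21.21% of its words, and the strand setting of the quantification is not given in the sources used here, so reads of the pair cannot be told apart there. Masp2 stood at 2.08 to 3.72 TPM in CAD soma and 9.80 to 15.7 TPM in N2A soma, and its change in knockout soma was not called (adjusted p = 0.62 and 0.46, edgeR's quasi-likelihood test).

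**Figure D2:**
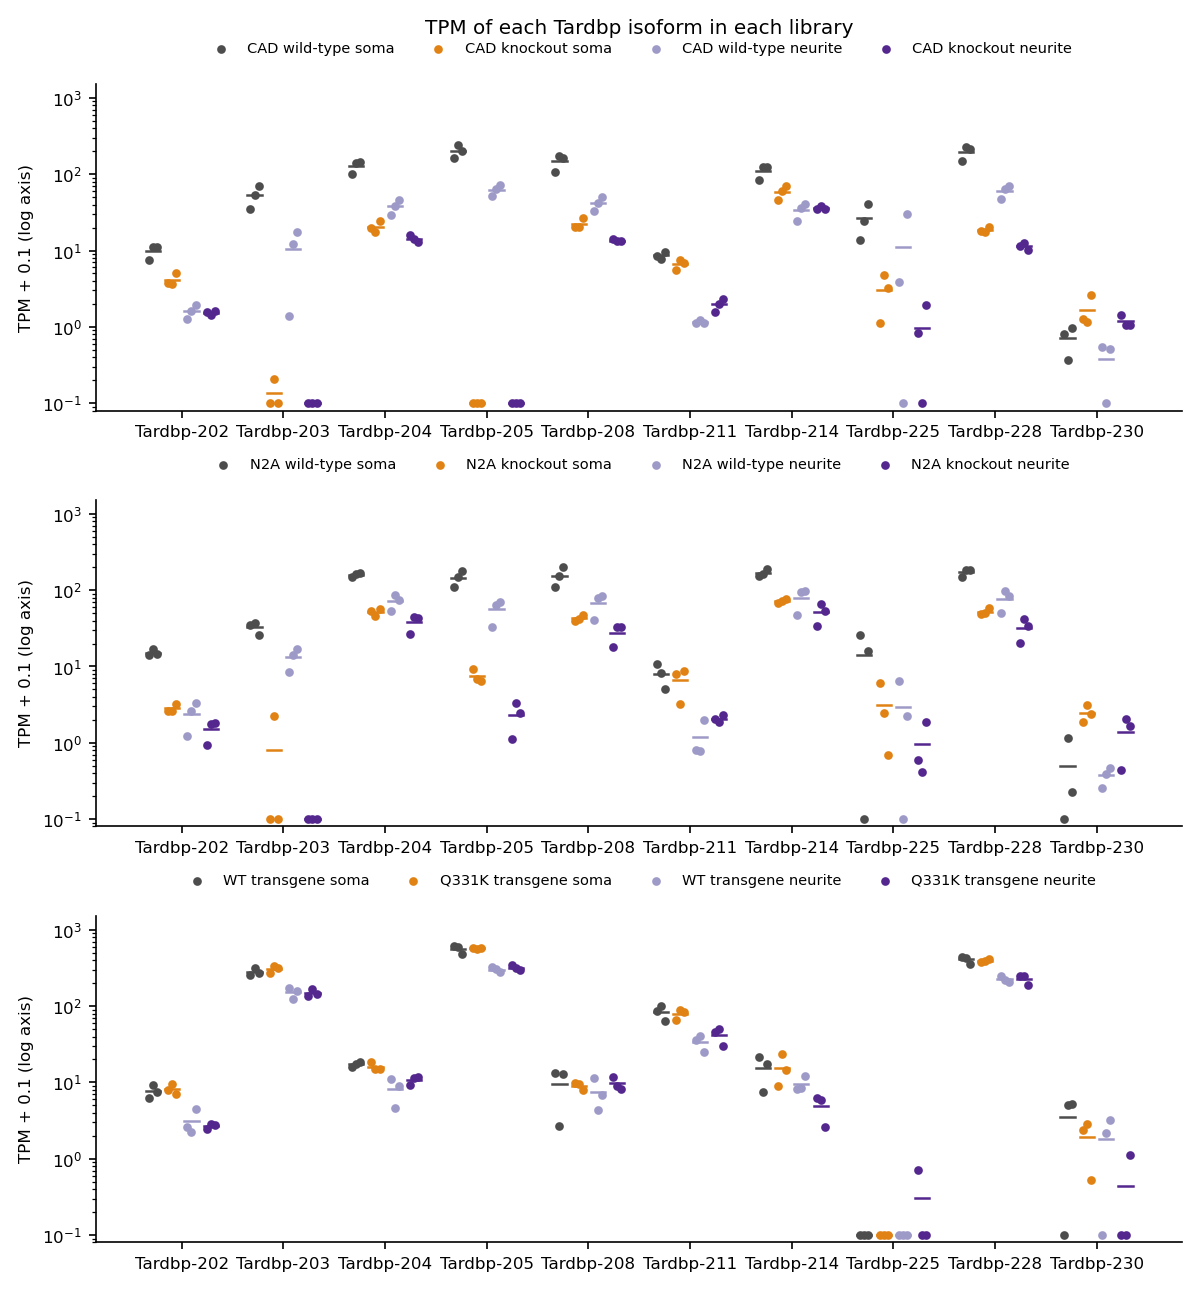
TPM of the main Tardbp isoforms in each library (points, plotted as TPM + 0.1 on a log axis, so that 0 stands at 0.1) with the mean of each group of 3 (lines), for CAD, N2A and transgene cells from top to bottom and coloured by group. In CAD cells Tardbp-205 is at 162 to 243 TPM in wild-type soma and at 0 in all knockout libraries, whereas Tardbp-214 stays within 45.5 to 69.2 TPM in knockout soma.

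When the transgene was switched off in CAD soma, 7 of the 11 tested isoforms fell and none was called higher. Calls were made at an adjusted p below 0.01 with edgeR's quasi-likelihood test over all 49163 transcripts, of which 1.89% were called lower and 2.26% higher, and DESeq2 called the same number of Tardbp isoforms, 7 lower and 0 higher; the 7 were also the only ones with an unadjusted p below 0.05. Here, as in every bulk comparison below, fewer cells with an RNA and less RNA per cell cannot be told apart. For the gene as a whole, the sum over isoforms fell by 2.52 ± 0.08 (log2, SE; adjusted p = 3.3e-12) in soma and by 1.89 ± 0.08 (adjusted p = 3.9e-11) in neurites, where 11.6% and 13.5% of 17343 genes were called lower.

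Tardbp-205 and Tardbp-203, coding isoforms spliced within the last exon, fell furthest. Both are annotated as beginning at the start codon, 1657 bases from the gene start, whereas Tardbp-202, Tardbp-204 and Tardbp-228 carry sequence before it. The transgene was on in the wild-type and off in the knockout, and its reads were not separated from endogenous ones. Its part in these falls was not tested. Tardbp-205 stood at 162, 243 and 204 TPM in the 3 wild-type soma libraries and at 52.2, 63.5 and 72.6 TPM in wild-type neurites. It was listed at 0 in all 6 knockout libraries. Against a floor of 3 counts per library it was at least 1144-fold lower in knockout soma and at least 853-fold lower in knockout neurites (adjusted p = 1.9e-06 and 1.4e-06). Tardbp-203 read 34.5, 53.4 and 70.5 TPM in wild-type soma and 1.27, 12.1 and 17.5 TPM in wild-type neurites, where the library of replicate 1 stood far below the others. In knockout soma it had 2.38 estimated counts over the 3 libraries together, a ratio of 1240 with a 95% counting interval of 399 to 11900, and in knockout neurites it had none, which is at least 134-fold lower. Its calls (adjusted p = 0.00074 and 0.00099) were lost when replicate 2 or replicate 3 was left out, with adjusted p up to 0.081 in soma and 0.085 in neurites.

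Tardbp-204, the third spliced coding isoform and the one that keeps the GTGTG-rich end, fell less far. It went from 99.9, 139 and 145 TPM in wild-type soma to 19.6, 17.4 and 24.3 TPM in knockout soma, and from 29.3, 38.2 and 46.5 TPM to 15.7, 14.0 and 12.7 TPM in neurites. The groups did not overlap in either compartment. The log2 changes were -2.45 ± 0.10 in soma (adjusted p = 7.6e-07) and -1.61 ± 0.10 in neurites (adjusted p = 5.4e-06).

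Tardbp-228 and Tardbp-208, annotated as NMD targets, fell as well, while the other NMD-annotated isoforms tested, Tardbp-201 and Tardbp-230, were not called. Tardbp-228 stood at 150, 225 and 214 TPM in wild-type soma against 17.9, 17.6 and 20.3 TPM in knockout soma, and at 47.1, 63.9 and 70.0 TPM in wild-type neurites against 11.4, 12.5 and 10.0 TPM. Its log2 changes were -3.19 ± 0.09 (adjusted p = 8.5e-08) and -2.60 ± 0.09 (adjusted p = 1.1e-07), the largest among the isoforms still detected in every knockout library. Tardbp-208, which holds neither guide site, went from 108, 174 and 162 TPM to 20.3, 20.1 and 26.7 TPM in soma and from 32.5, 42.4 and 49.4 TPM to 14.1, 13.1 and 13.1 TPM in neurites. Its log2 changes were -2.57 ± 0.16 (adjusted p = 7.6e-06) and -1.79 ± 0.16 (adjusted p = 5.3e-05), and the second was lost without replicate 2 (adjusted p = 0.010). The calls of Tardbp-204, Tardbp-205 and Tardbp-228 in both compartments and that of Tardbp-208 in soma held without any 1 of the replicates.

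The full-length Tardbp-202 and the short Tardbp-214 changed least among the isoforms called in CAD soma. Tardbp-202 read 7.30, 11.1 and 11.0 TPM in wild-type soma and 3.68, 3.56 and 4.96 TPM in knockout soma, a change of -1.07 ± 0.11 (log2, adjusted p = 0.00016). In neurites it read 1.17, 1.53 and 1.81 TPM against 1.49, 1.31 and 1.51 TPM, which overlap, and its change of -0.25 ± 0.11 was not called (adjusted p = 0.20). Tardbp-214 read 84.0, 123 and 123 TPM in wild-type soma and 45.5, 60.6 and 69.2 TPM in knockout soma. That fall of 0.72 ± 0.09 on the log2 scale was called (adjusted p = 0.00049), but not without replicate 2 or replicate 3 (adjusted p up to 0.050), nor on the log2(TPM + 0.5) scale (adjusted p = 0.037). In neurites Tardbp-214 read 24.5, 35.8 and 40.4 TPM against 35.4, 38.1 and 34.8 TPM. These values overlap, and the log2 change of -0.08 ± 0.09 was not called (adjusted p = 0.67). The call of Tardbp-202 in soma was lost without any 1 of the replicates (adjusted p up to 0.029). In neurites, 5 of the 11 isoforms were called lower and 0 higher, against 2.82% and 2.65% of all transcripts. DESeq2 gave the same counts, and Tardbp-202 and Tardbp-225, with lower values, were the others with an unadjusted p below 0.05.

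The remaining tested isoforms were not called. Tardbp-211, with its own first exon, stood at 8.41, 7.63 and 9.54 TPM in wild-type soma and 5.45, 7.47 and 6.68 TPM in knockout soma (adjusted p = 0.85). Tardbp-225, annotated as a retained intron, varied from 13.6 to 40.5 TPM in wild-type soma and from 0 to 29.8 TPM in wild-type neurites. In knockout soma it stood at 1.02, 4.71 and 3.17 TPM, below all wild-type soma libraries, and its log2 change of -2.91 ± 1.40 was not called (adjusted p = 0.31). Tardbp-230, which combines the upstream junction end of Tardbp-204 with the downstream end of Tardbp-214, had its higher values in the knockout, at 1.15, 1.07 and 2.54 TPM in soma against 0.694, 0.268 and 0.857 TPM, and its change of 1.47 ± 0.94 (log2) was not called (adjusted p = 0.52). Tardbp-201 stayed below 0.85 TPM.

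**Figure D3:**
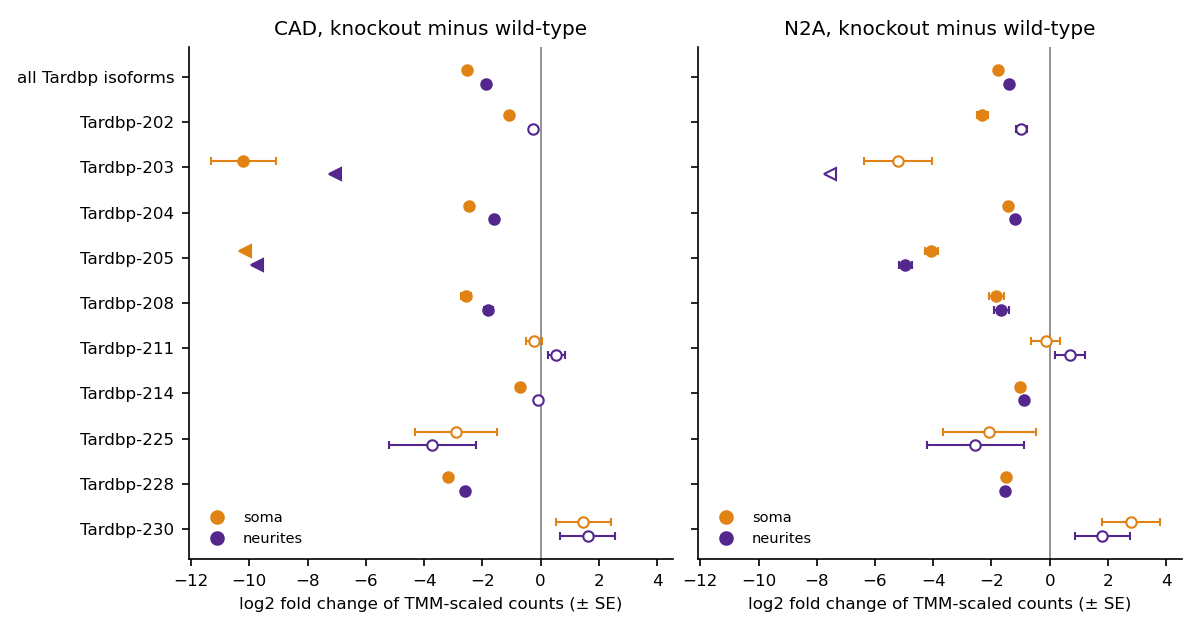
Log2 fold change of the sum over isoforms and of the isoforms most abundant or named below, knockout minus wild-type, in soma (orange) and neurites (purple) of CAD and N2A cells (horizontal axis; TMM-scaled counts, points with SE, n = 3 libraries per group). Filled points have an adjusted p below 0.01, open points do not, and left-pointing triangles stand at the bound given by 3 counts per library where every knockout library was at 0. No filled point lies above 0.

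The order of the isoforms in N2A cells was partly different. In N2A soma 6 of 12 tested isoforms were called lower and 0 higher, against 0.43% and 2.64% of 49581 transcripts, and DESeq2 also called 6 and 0. In N2A neurites 5 were called lower and 0 higher, against 0.785% and 0.93%, and DESeq2 called 7 lower and 0 higher. At an unadjusted p below 0.05 there were 8 isoforms in each compartment, 1 of them (Tardbp-230 in soma) with higher values in the knockout. These calls rest on few libraries: without replicate 2 no isoform was called in either compartment, without replicate 1 there were 4 in soma and 1 in neurites, and without replicate 3 there were 4 and 2.

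Tardbp-205 fell furthest among the called isoforms of N2A cells, from 112, 150 and 176 TPM to 9.24, 6.82 and 6.38 TPM in soma, and from 33.2, 64.1 and 70.9 TPM to 1.03, 3.25 and 2.35 TPM in neurites. It thus stayed detectable in all 6 knockout libraries of this line. Its log2 changes were -4.07 ± 0.22 (adjusted p = 1.5e-05) and -4.96 ± 0.23 (adjusted p = 4.9e-06). Tardbp-203 read 34.4, 37.2 and 25.8 TPM in wild-type soma against 0, 2.14 and 0 TPM in the knockout, and its change was not called (adjusted p = 0.029). In neurites it read 8.34, 14.2 and 16.9 TPM against 0 in all 3 knockout libraries, at least 186-fold lower (adjusted p = 0.012, not called).

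Tardbp-204 went from 147, 164 and 166 TPM to 52.6, 46.3 and 56.3 TPM in N2A soma and from 54.0, 87.0 and 74.9 TPM to 26.9, 44.9 and 42.8 TPM in neurites (log2 changes of -1.42 ± 0.11 and -1.20 ± 0.11). Tardbp-228 went from 149, 184 and 183 TPM to 48.0, 50.4 and 58.4 TPM in soma, and from 49.7, 98.5 and 83.4 TPM to 20.5, 41.7 and 34.0 TPM in neurites (-1.51 ± 0.10 and -1.54 ± 0.10). Tardbp-208 went from 109, 152 and 201 TPM to 39.6, 41.7 and 47.8 TPM in soma, and from 40.4, 80.1 and 83.6 TPM to 17.9, 32.6 and 32.7 TPM in neurites (-1.84 ± 0.25 and -1.67 ± 0.25). In all of these pairs the wild-type and knockout libraries did not overlap, and each was called, with adjusted p between 3.5e-05 and 0.0042.

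Tardbp-214 was called lower in both compartments of N2A cells, from 152, 164 and 191 TPM to 67.6, 72.5 and 76.3 TPM in soma (-1.03 ± 0.11, adjusted p = 0.00032) and from 46.8, 95.4 and 96.4 TPM to 33.8, 66.3 and 53.5 TPM in neurites (-0.90 ± 0.11, adjusted p = 0.00094). The neurite libraries overlap in TPM but not in scaled counts. On the log2(TPM + 0.5) scale the neurite change of Tardbp-214 was not called (adjusted p = 0.83), and neither were those of Tardbp-204, Tardbp-208 and Tardbp-228 in neurites (adjusted p of 0.24, 0.23 and 0.15). Tardbp-202 fell in N2A soma from 14.1, 17.0 and 14.4 TPM to 2.54, 2.49 and 3.14 TPM (-2.31 ± 0.19, adjusted p = 9.1e-05). In N2A neurites it read 1.12, 2.54 and 3.23 TPM against 0.844, 1.67 and 1.70 TPM, a change that was not called (adjusted p = 0.013). Tardbp-211, Tardbp-216, Tardbp-225 and Tardbp-230 were not called in either compartment. Tardbp-230 again had its higher values in the knockout soma, at 1.76, 3.01 and 2.28 TPM against 0, 1.06 and 0.128 TPM (adjusted p = 0.13).

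Whether the isoforms responded unequally in both lines was tested in a fit of the CAD and N2A libraries together, which was added after the separate results had been seen. In soma, 4 of 13 isoforms differed between the lines, against 1.21% of 57608 transcripts. The knockout effect in N2A soma was weaker for Tardbp-228 by 1.78 ± 0.15 (log2, adjusted p = 1.6e-06) and for Tardbp-204 by 1.13 ± 0.15 (adjusted p = 0.00028), and stronger for Tardbp-202 by a difference of -1.14 ± 0.24 (adjusted p = 0.0097). Tardbp-205 also differed, at 0 in CAD knockout cells and above 6 TPM in each N2A knockout soma library (adjusted p = 3.7e-08), with a fitted difference whose size depends on the treatment of the zeros. The fall of the sum over isoforms was smaller in N2A than in CAD cells, by 0.82 ± 0.11 in soma (adjusted p = 1.1e-05, against 10.5% of genes) and by 0.53 ± 0.11 in neurites (adjusted p = 0.0012, against 9.18%). In neurites, Tardbp-228 (1.12 ± 0.15, adjusted p = 0.00021) and Tardbp-205 (adjusted p = 2.4e-07) differed, against 1.14% of all transcripts. Tardbp-214 did not differ between the lines in soma (-0.22 ± 0.16, adjusted p = 0.63) and missed the threshold in neurites (-0.77 ± 0.16, adjusted p = 0.013).

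**Figure D4:**
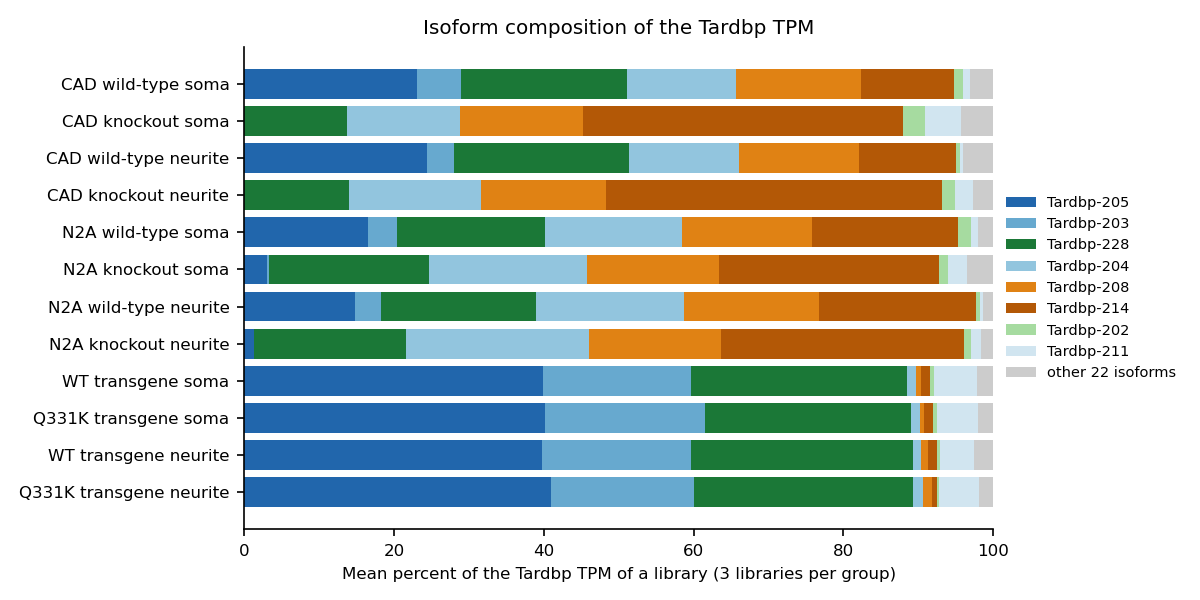
Composition of the Tardbp TPM of each group (1 stacked bar per group, mean percent over 3 libraries on the horizontal axis from 0 to 100) by isoform, for the CAD, N2A and transgene cells. In CAD cells Tardbp-214 rises from 12.4% to 42.7% of the soma total while Tardbp-205 goes from 23.1% to 0%.

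Seen as a composition, the Tardbp TPM of CAD knockout cells was led by Tardbp-214, and that of wild-type cells was a mixture of several isoforms. In CAD wild-type soma the Tardbp TPM was held by Tardbp-205 (23.1% ± 1.98, SD, n = 3), Tardbp-228 (22.2% ± 0.33), Tardbp-208 (16.7% ± 0.63), Tardbp-204 (14.5% ± 0.60) and Tardbp-214 (12.4% ± 0.16). In knockout soma Tardbp-214 held 42.7% ± 2.92, Tardbp-208 16.4% ± 1.36, Tardbp-204 15.1% ± 2.04 and Tardbp-228 13.8% ± 1.50. In neurites Tardbp-214 again held the highest mean share in the knockout, going from 12.9% ± 0.81 in the wild-type to 44.8% ± 1.59. Tardbp-202 was a small part of the TPM total, at 1.11% ± 0.016 in wild-type soma and 2.98% ± 0.29 in knockout soma. TPM divides by the effective length, which in CAD libraries was 6024 to 6347 bases for Tardbp-202 and 551 to 592 for Tardbp-214. The part of Tardbp-202 in the estimated counts was thus larger, and the order of the isoforms in TPM need not hold in counts. With 3 libraries against 3 the exact permutation test cannot go below p = 0.1. In both compartments of CAD cells it reached this for the shares of Tardbp-202, Tardbp-203, Tardbp-205, Tardbp-211, Tardbp-214, Tardbp-228 and Tardbp-230 (adjusted p = 0.15 over 17 values).

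In N2A cells the shares of Tardbp-214 and Tardbp-205 moved in the same directions, and their difference from CAD cells was not tested. Tardbp-214 went from 19.4% ± 0.71 to 29.5% ± 1.29 in soma and from 21.0% ± 1.43 to 32.4% ± 1.58 in neurites. Tardbp-205 went from 16.6% ± 1.62 to 3.07% ± 0.74 in soma and from 14.8% ± 1.33 to 1.34% ± 0.34 in neurites. Tardbp-228, by contrast with CAD cells, held 19.8% ± 1.12 and 21.3% ± 1.04 of the soma total in wild-type and knockout (exact permutation p = 0.2). Isoforms with neither guide site together held 29.2% ± 0.51 of the Tardbp TPM in CAD wild-type soma and 59.7% ± 2.33 in knockout soma, and 36.8% ± 2.80 and 47.4% ± 1.86 in N2A soma, without overlap between the groups (exact permutation p = 0.1 in each line, the smallest possible). Of these differences of 30.5 and 10.6 percentage points, Tardbp-214 alone made up 30.2 and 10.1. The share of Tardbp-208, which also holds neither site, changed by -0.26 and 0.16 points, so the rise was not shared by the class.

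The change of each isoform relative to its gene was tested over all transcripts with edgeR's diffSpliceDGE. In both compartments of CAD cells 4 of 11 isoforms changed in usage, against 0.562% of 41801 transcripts in soma and 1.10% in neurites. Tardbp-214 rose relative to the gene by 1.78 in soma and 1.80 in neurites (log2, adjusted p = 2.0e-06 and 1.6e-06) and Tardbp-202 by 1.44 and 1.63 (adjusted p = 0.0064 and 0.00078), while Tardbp-203 and Tardbp-205 fell (adjusted p between 6.9e-29 and 2.8e-11). The calls of Tardbp-202 were lost without any 1 of the replicates (adjusted p up to 0.23 in soma and 0.081 in neurites) and the one in soma also without the filter, while the other 3 held in both compartments. Tardbp-204 and Tardbp-208 moved with the gene (usage changes of -0.06 to 0.27, not called). The usage changes of Tardbp-228, -0.68 in soma and -0.72 in neurites, were not called either (adjusted p = 0.17 and 0.066). Nor were those of Tardbp-230, 3.97 and 3.49 (adjusted p = 0.028 and 0.042). In N2A cells only the falls of Tardbp-203 and Tardbp-205 were called among the 12 tested isoforms, in soma (adjusted p = 0.00063 and 7.5e-07) and in neurites (3.8e-10 and 7.4e-12), against 0.36% and 0.43% of 41615 transcripts. The call of Tardbp-203 in N2A soma was lost without replicate 1 or replicate 3 (adjusted p up to 0.078). The usage of Tardbp-214 in N2A cells, 0.66 and 0.58 higher, was not called (adjusted p = 0.69 and 0.74). Between compartments no isoform changed in usage in CAD cells (against 0.923% of transcripts in the wild-type and 1.09% in the knockout), whereas Tardbp-202 was lower relative to the gene in N2A wild-type neurites (-1.49, adjusted p = 0.0020, against 5.92%) and Tardbp-203 in N2A knockout neurites (adjusted p = 0.0022, against 0.507%), where it had no counts. The first call was lost without the filter and without any 1 of the replicates (adjusted p up to 0.043), and the second with the replicate block and without replicate 2 or replicate 3.

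Between compartments, the reading depended on the scale. On trimmed-mean (TMM) scaled counts, the localization ratio (LR, the log2 of neurite over soma) of Tardbp-202 was -0.78 ± 0.11 in CAD wild-type cells (adjusted p = 0.00040) and -1.02 ± 0.18 in N2A wild-type cells (adjusted p = 0.0010), the isoform called lower in neurites in both lines, and on the log2(TPM + 0.5) scale it was lower still, at -2.35 and -2.56. The other called isoforms had a positive LR on scaled counts and a negative one on the TPM scale. These were Tardbp-204, Tardbp-208, Tardbp-214 and Tardbp-228 in CAD knockout cells, with an LR of 1.02 ± 0.10, 0.84 ± 0.16, 0.85 ± 0.09 and 0.79 ± 0.09 on scaled counts and of -0.50, -0.71, -0.67 and -0.69 on the TPM scale. The median over all tested transcripts in these cells was -0.13 on scaled counts and -0.93 on the TPM scale, so that relative to it these isoforms lay higher in neurites on both. In N2A cells Tardbp-204, Tardbp-214 and Tardbp-228 were called higher in neurites on scaled counts and had negative values on the TPM scale, with an LR of 0.67, 0.67 and 0.60 against -1.16, -1.15 and -1.20 in the wild-type, where the medians of all transcripts were -0.32 and -1.13 and the values on the TPM scale lay just below the median, and of 0.88, 0.81 and 0.58 against -0.46, -0.54 and -0.75 in the knockout, with medians of -0.18 and -0.82. The isoforms called between compartments on scaled counts numbered 1 lower and 0 higher in CAD wild-type cells (against 4.27% and 10.7% of all transcripts), 0 and 4 in CAD knockout cells (5.53% and 10.9%), 1 and 3 in N2A wild-type cells (12.2% and 17.3%) and 0 and 3 in N2A knockout cells (3.23% and 8.43%). The LR of the sum over isoforms on scaled counts was -0.08 ± 0.07 (adjusted p = 0.39) in CAD wild-type and 0.55 ± 0.07 (adjusted p = 9.7e-06) in CAD knockout cells, where 41.3% and 43.6% of genes were called. It was 0.24 ± 0.08 (adjusted p = 0.011) in N2A wild-type and 0.61 ± 0.08 (adjusted p = 9.2e-06) in N2A knockout cells, against 59.2% and 38.5%, and on the TPM scale all 4 values were negative.

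The change of the LR with the knockout was called for no isoform, in either line, by edgeR's quasi-likelihood test, in which 0.0773% of the CAD and 0.0282% of the N2A transcripts were called. At an unadjusted p below 0.05 there were 5 isoforms in CAD cells, Tardbp-202, Tardbp-204, Tardbp-208, Tardbp-214 and Tardbp-228, each with a higher LR in the knockout by 0.59 to 0.84, and DESeq2 called 4 of the 11 higher. In N2A cells there were 3, and DESeq2 called 1 higher and 1 lower. For the sum over isoforms the LR was higher in the CAD knockout by 0.63 ± 0.10 (adjusted p = 0.0050, against 0.432% of 17343 genes called), which was not called on the TPM scale or without any 1 of the replicates, and by 0.37 ± 0.11 in N2A cells (adjusted p = 0.047, not called, against 0.1% of genes).

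**Figure D5:**
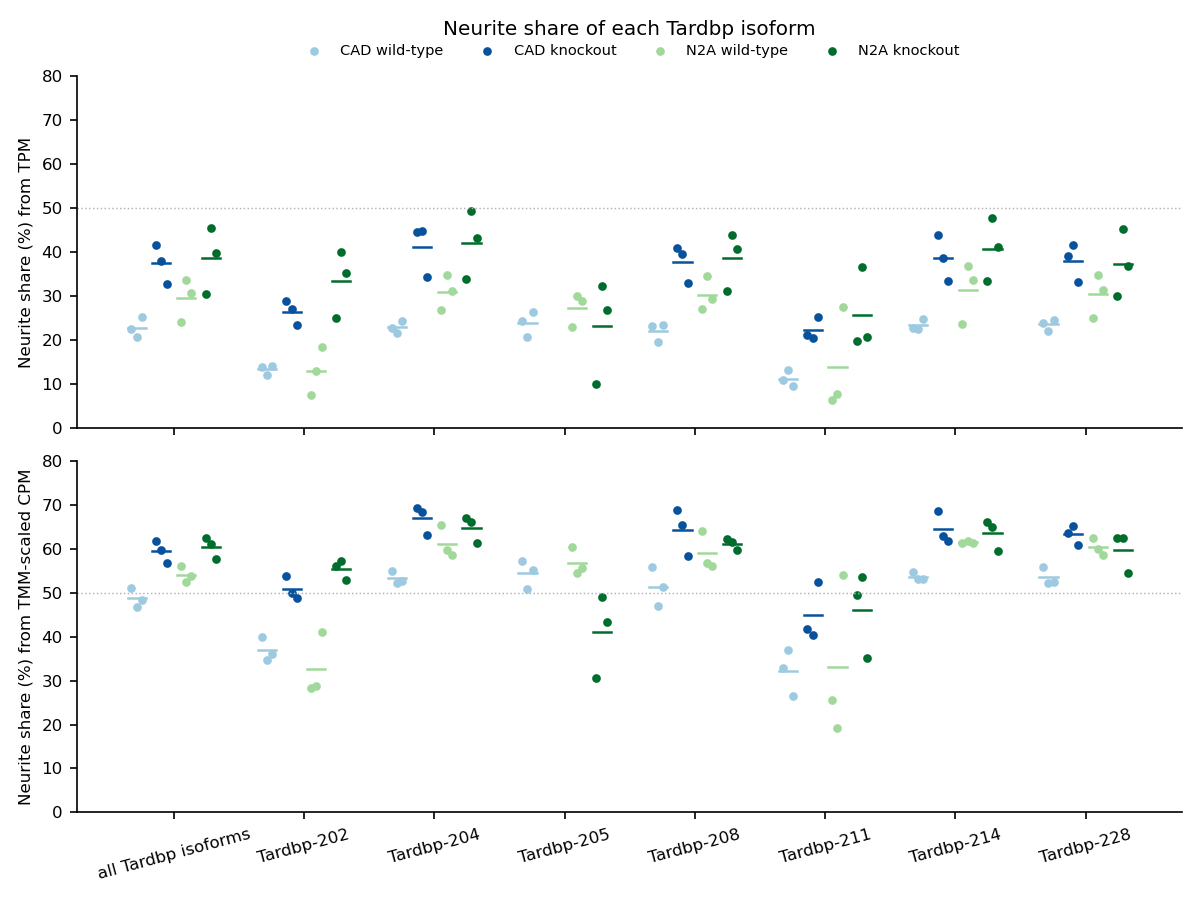
Neurite share of the sum over isoforms and of 7 isoforms, the neurite level as a percent of neurite plus soma level at the same replicate number (points), with the mean of 3 (lines), for wild-type and knockout cells of both lines, from TPM (upper panel) and from TMM-scaled counts (lower panel). The plotted shares lie below 50% on the TPM scale, and for the sum over isoforms in CAD cells they are 48.7% and 59.4% on scaled counts, so the side of 50% depends on the scale.

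The neurite share, which compares relative levels within libraries and not numbers of molecules, was computed from soma and neurite libraries of the same replicate number, whose deviations from their group means were only weakly correlated (-0.166 to 0.230). In CAD wild-type cells it was 13.3% ± 1.09 (SD, n = 3) for Tardbp-202, 22.9% ± 1.33 for Tardbp-204, 22.0% ± 2.13 for Tardbp-208, 23.3% ± 1.25 for Tardbp-214 and 23.6% ± 1.28 for Tardbp-228. In CAD knockout cells the same isoforms stood at 26.4% ± 2.74, 41.2% ± 5.90, 37.8% ± 4.27, 38.6% ± 5.15 and 37.9% ± 4.33. Each of these 5 isoforms was higher in 3 of 3 knockout pairs than in any wild-type pair, for which the exact permutation test gives p = 0.1, the smallest possible (adjusted p = 0.13 over 9 values). On scaled counts the wild-type and knockout shares were 36.9% and 50.8% for Tardbp-202 and 53.2% and 66.9% for Tardbp-204. Those of Tardbp-208 were 51.3% and 64.2%, of Tardbp-214 53.6% and 64.4% and of Tardbp-228 53.5% and 63.3%. On the log2(TPM + 0.5) scale the median LR of all tested transcripts was -1.19 in CAD wild-type and -0.93 in CAD knockout cells. The typical transcript thus also had a higher TPM share in the knockout, and how many did not overlap was not counted. In both CAD genotypes Tardbp-202 had a smaller neurite share than the other 4, and Tardbp-211 stood lower still, at 11.2% ± 1.75 and 22.2% ± 2.59.

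In N2A cells Tardbp-202 stood at 7.36%, 13.0% and 18.3% in the wild-type pairs and 24.9%, 40.1% and 35.1% in the knockout pairs, without overlap (exact permutation p = 0.1). The shares of Tardbp-204, Tardbp-208, Tardbp-214 and Tardbp-228 had means of 30.3% to 31.3% in the wild-type and 37.3% to 42.1% in the knockout and overlapped between the genotypes (exact permutation p of 0.2 to 0.3). Between same-numbered pairs the TPM share was higher in the knockout in 3 of 3 for each of these isoforms, and the share on scaled counts in 3 of 3 for Tardbp-204, 2 of 3 for Tardbp-208 and Tardbp-214 and 1 of 3 for Tardbp-228. Tardbp-205, which could be followed in the knockout of this line, stood at 27.2% ± 3.76 and 23.1% ± 11.6 from TPM (exact permutation p = 0.8). On scaled counts its share was 60.4%, 54.4% and 55.6% in the wild-type pairs and 30.6%, 49.1% and 43.3% in the knockout pairs. These values did not overlap and lay lower in the knockout, and shares on that scale were not tested.

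In the transgene cells, where the endogenous gene was intact and the HA-tagged transgene carried another 3′ UTR, the isoforms were in a different order. The means below are side by side with those above only as description, since the experiment was sequenced and quantified separately. In soma of cells with the WT transgene Tardbp-205 read 610, 602 and 488 TPM, Tardbp-228 441, 432 and 356 TPM, Tardbp-203 252, 314 and 270 TPM and Tardbp-211 85.2, 102 and 63.5 TPM. Tardbp-204, Tardbp-208 and Tardbp-214 were low, at 15.9 to 18.2 TPM, 2.55 to 13.1 TPM and 7.33 to 21.2 TPM. Tardbp-205 thus held 39.9% ± 1.55 of the Tardbp TPM, Tardbp-228 28.9% ± 1.07 and Tardbp-203 19.7% ± 2.20, and isoforms with neither guide site held 2.61% ± 0.75.

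The Q331K transgene gave values close to these. In soma Tardbp-205 read 584, 556 and 578 TPM, Tardbp-228 376, 389 and 413 TPM and Tardbp-203 272, 334 and 315 TPM, all within or near the range of the WT transgene. None of 13 tested isoforms was called between the transgenes in soma or neurites, in a comparison in which 0.00287% and 0.023% of 34797 transcripts were called. DESeq2 called 0 in both compartments, and at an unadjusted p below 0.05 there were 0 in soma and 1 in neurites. The log2 differences of the abundant isoforms, Q331K minus WT, were -0.04 ± 0.12 for Tardbp-205, -0.06 ± 0.13 for Tardbp-228 and 0.09 ± 0.10 for Tardbp-203 in soma, and 0.13 ± 0.12, 0.08 ± 0.13 and 0.03 ± 0.10 in neurites. No isoform was called between compartments in the transgene cells on scaled counts, by edgeR or by DESeq2, against 5.38% of transcripts with the WT and 7.12% with the Q331K transgene. The sum over isoforms was not called either, with an LR of 0.06 ± 0.09 and 0.16 ± 0.09 (27.5% and 31.3% of genes called) and a Q331K minus WT difference of -0.02 ± 0.09 in soma and 0.08 ± 0.09 in neurites (0.0% of genes called in each). The neurite share of the sum over isoforms was 34.9% ± 2.43 with the WT and 35.3% ± 2.42 with the Q331K transgene (51.0% and 52.8% on scaled counts).

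Genes of the pathways that act on such isoforms were counted at the gene level, where 11.2% of genes were called higher and 11.6% lower in CAD soma, 11.8% and 13.5% in CAD neurites, 10.9% and 5.15% in N2A soma and 6.48% and 5.1% in N2A neurites. Of 10 NMD factors, 3 were higher and 0 lower in CAD knockout soma, 3 and 1 in CAD neurites, and 1 and 1 in each compartment of N2A cells. Upf3a, which encodes a UPF2-binding NMD factor, rose in all 4 comparisons, by 1.01 ± 0.08 (log2, adjusted p = 7.7e-08) in CAD soma and by 0.71 ± 0.08 (adjusted p = 2.3e-05) in N2A soma. Smg6, the NMD endonuclease, rose in CAD soma by 0.32 ± 0.06 (adjusted p = 0.00094) and fell in N2A soma by 0.82 ± 0.08 (adjusted p = 4.1e-06). Of 13 measured genes of the nuclear exosome, which degrades RNA from its 3′ end, 4 were higher in CAD soma, 6 in CAD neurites, 3 in N2A soma and 0 in N2A neurites, and 0 were lower in any. Exosc5, a subunit of the exosome core, was higher in CAD soma (0.48 ± 0.09, adjusted p = 0.00058), and Mtrex, the helicase that feeds the exosome, in CAD neurites (0.31 ± 0.06, adjusted p = 0.00086) and N2A soma (0.30 ± 0.08, adjusted p = 0.0088). Of 16 cleavage and polyadenylation factors, 1 was higher and 1 lower in CAD soma, 1 and 0 in CAD neurites, 2 and 0 in N2A soma and 0 and 0 in N2A neurites. Cstf3, a cleavage stimulation subunit, rose in CAD soma by 0.57 ± 0.08 (adjusted p = 5.5e-05). The list medians in CAD soma were 0.13, 0.21 and 0.07 for the NMD, exosome and polyadenylation lists, against 0.0022 for all genes. They were 0.19, 0.28 and 0.06 in CAD neurites (all genes 0.0040), 0.05, 0.21 and 0.18 in N2A soma (all genes -0.024) and -0.02, -0.01 and -0.02 in N2A neurites (all genes -0.014).

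Log2 levels were centred within cell line and compartment across the 24 CAD and N2A libraries, which share their groups. The genes of 16199 whose centred level followed that of Tardbp most closely were Adgrg1 (Pearson's r = 0.987), Acss2 (0.978), Tmtc1 (0.973), Ptprb (0.970) and Raph1 (0.969). Such centring keeps the difference between genotypes, so a high r can reflect a shared change in the knockout alone. Adgrg1, an adhesion G protein-coupled receptor gene, was lower in the knockout by 3.36 (log2) in CAD soma and by 3.03 in N2A soma.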

How the data were processed

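RNA of soma and neurite fractions was sequenced from poly(A)-selected libraries, and per the labels reads were trimmed with cutadapt and quantified with Salmon against mouse transcripts (mm10); tool versions are not given in the sources used here. The authors deposited, per transcript, estimated counts, length-scaled abundances (TPM) and the effective length, another value per transcript that the deposited TPM is scaled by. Salmon's effective length of Tardbp-208 was 360 to 452 bases in CAD libraries for 1011 annotated bases, which raises its TPM relative to its counts. Transcripts were named with GENCODE vM21, a release other than the one the study's methods name, in which all 30 Tardbp lengths matched the tables.

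Counts were rounded, filtered by group (filterByExpr, minimum 10), TMM-scaled and tested with edgeR 4.0.16 (R 4.3.3) on the 12 libraries of each experiment, with Benjamini-Hochberg adjustment over all transcripts and a threshold of 0.01; limma 3.58.1 and DESeq2 1.42.0 served as alternatives, and scripts were tested on simulated data. Single shares were compared with two-sided exact permutation tests. Counting intervals and floors cover counting error only. Numbers were taken to pair libraries where the deviations of all 3 same-numbered pairs correlated above 0.1. Wild-type and knockout libraries met this in N2A soma (0.549, 0.123 and 0.324), the only source of that pairing, and not in CAD soma (0.482, 0.089 and 0.264) or in the neurites of either line. In N2A soma, wild-type 3 with knockout 2 reached 0.236, above the 0.123 of a same-numbered pair, so this rule does not establish the pairing. The main fits held no replicate block. All 30 isoforms were accounted for, those past the filter by name; other genes named were the overlapping gene, members of 3 lists among the 3 with the smallest p of a comparison, and the 5 genes most correlated with Tardbp. The members and lists were chosen with earlier results of these data known. The other libraries of the series were not used here.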

Additional observations from a re-analysis of the deposited data

Results flagged for a closer look

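Several knockout effects on Tardbp differed between CAD and N2A cells in a fit of both lines that was added after the separate results had been seen. As N2A minus CAD on the log2 scale, the effects in soma differed by -1.14 for Tardbp-202, 1.13 for Tardbp-204, 1.78 for Tardbp-228 and 0.82 for the sum over isoforms, and those in neurites by 1.12 for Tardbp-228 and 0.53 for the sum (edgeR's quasi-likelihood test, adjusted p from 1.6e-06 to 0.0097). The fitted differences of Tardbp-205, 10.5 in soma and 9.86 in neurites, rest on a group with no counts, so that their size is not a measurement and no bound. Each line was a screened clone, so a difference between lines and one between clones cannot be told apart. The LR of the sum over isoforms was higher in the CAD knockout by 0.63 (adjusted p = 0.0050, edgeR's quasi-likelihood test). That call was lost on both TPM scales and whichever replicate was left out. The sum does not separate transgene RNA from endogenous RNA. No group had 4 or more libraries, so none was examined for an outlying library.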

How the results depend on the processing

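The 35 called isoform changes kept their direction under every count-based setting tried. All 35 also kept their call with DESeq2 and with the replicate block, 34 without the filter and 33 with upper-quartile factors. A threshold of 0.05 on the same fit keeps every such call by construction. Of the 35, 22 remained without replicate 1, 9 without replicate 2 and 24 without replicate 3, and fewer libraries are part of that construction. Depth limits the isoforms near 1 TPM most, such as Tardbp-230, whose change in CAD soma had an SE of 0.94. With the replicate block, the usage of N2A knockout neurites against soma went from 1 called isoform to 0, and no other call changed; the sum in CAD soma was -2.52 with it. The cause of the changes below was not tested.

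Counts of isoforms called lower in the knockout with 1 replicate number left out were 4 to 6 in CAD soma, 3 to 5 in CAD neurites, 0 to 4 in N2A soma and 0 to 2 in N2A neurites. With limma on log2(TPM + 0.1) the count in N2A soma was 3. In N2A neurites it was 2 with either pseudocount, 0.5 or 0.1, and the change of the sum there was -1.24 with both and not called.

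For neurites against soma in CAD wild-type cells, 2 isoforms were called lower with a threshold of 0.05, with DESeq2 and with upper-quartile factors, 9 on log2(TPM + 0.5), 8 on log2(TPM + 0.1) and 0 to 1 with a replicate left out, and the sum was called at -1.77 with both pseudocounts. In CAD knockout cells the TPM scales called 3 lower and 0 higher, against 4 higher in the counts and 2 to 3 with a replicate left out, and the sum was reversed to -0.75 with both. In N2A wild-type cells 7 were lower and 0 higher on either TPM scale, 1 was higher with upper-quartile factors, and 0 to 1 lower and 0 to 3 higher with a replicate left out. The sum there was 0.24 and called at a threshold of 0.05, reversed to -0.058 with upper-quartile factors and to -1.27 on both TPM scales. In N2A knockout cells 1 was lower and 0 higher on either TPM scale, 0 to 3 were higher with a replicate left out, and the sum was -0.68 and -0.69 on the TPM scales and 0.53 to 0.68 with a replicate left out. In the transgene cells the TPM scales called 6 lower with the WT transgene and 5 (0.5) or 4 (0.1) with Q331K, and the sums were reversed to -0.90 and -0.87 with either.

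The reversed isoforms on the TPM scales, with pseudocounts of 0.5 and 0.1, were, in CAD knockout cells, Tardbp-204 (-0.50 and -0.52), Tardbp-208 (-0.71 and -0.72), Tardbp-214 (-0.67 and -0.67) and Tardbp-228 (-0.69 and -0.71). In N2A wild-type cells they were Tardbp-204 (-1.16 and -1.17), Tardbp-214 (-1.15 and -1.15) and Tardbp-228 (-1.20 and -1.21), and in N2A knockout cells Tardbp-204 (-0.46 and -0.47), Tardbp-214 (-0.54 and -0.55) and Tardbp-228 (-0.75 and -0.76).

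For the change of the LR, DESeq2 called 4 isoforms higher in CAD cells and 1 higher and 1 lower in N2A cells. The sum in CAD cells was 1.02 on both TPM scales and 0.57 to 0.70 with a replicate left out, not called in any of these. The sum in N2A cells was called at 0.37 with a threshold of 0.05, at 0.33 with DESeq2 and at 0.50 with upper-quartile factors. The difference between the transgenes, which was near 0, changed sign in soma to 0.015 on both TPM scales, and ran from -0.11 to 0.028 in soma and from -0.0035 to 0.12 in neurites with a replicate left out.

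Usage counts with a replicate left out were 1 to 3 for the N2A knockout in soma, 0 for N2A wild-type neurites against soma, which were also 0 without the filter, and 0 to 1 for N2A knockout neurites against soma. Shares of the Tardbp TPM that did not differ also changed sign with a replicate left out, with differences in percentage points of -0.22 to 1.26 for Tardbp-204 in CAD soma, and for Tardbp-208 of -1.11 to 0.84 in CAD soma, -0.024 to 1.16 in CAD neurites, -0.89 to 1.35 in N2A soma and -0.83 to 0.038 in N2A neurites. The share of Tardbp-208 in N2A soma was also reversed in shares of counts (-0.75).

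Neurite shares were higher from TMM-scaled counts. For the sum they were 48.7% and 59.4% in CAD wild-type and knockout, 54.1% and 60.4% in N2A and 51.0% and 52.8% with the WT and Q331K transgenes, whose difference ran from -1.35 to 2.53 points with a replicate left out. For Tardbp-214 they were 53.6% and 64.4%, 61.5% and 63.5%, and 56.4% and 40.4%.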
